A study of Mus musculus with 2 samples.

Results

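Endothelial marker genes were examined in laser-captured lower molar mesenchyme of mouse embryos, to describe the vessel content of the captured tissue. The 8 genes were Pecam1, Emcn, Tie1, Esam, Eng, Egfl7, Ramp2 and Plvap, chosen by gene symbol, and all 8 were found, on 15 of the 28107 RefSeq transcript rows and among 22054 gene symbols. The tissue came from Osr2-/- mutant embryos (1 library) and from Osr2+/- control embryos (1 library), on a mixed strain background at embryonic day 14.5. Osr2 is a transcription factor gene of zinc-finger type that the dental mesenchyme needs for correct tooth rows. The controls carry the mutant allele in heterozygous form, although the series title calls them wild type, and the sources used here do not give which part of the gene the allele lacks. Each library came from tissue pooled over 3 pairs, and the cDNA was amplified from small amounts of total RNA. Upper molars were not analysed here. With 1 library per genotype there is no replicate check, so every difference below describes these 2 libraries. Each ran on a lane of its own, per the deposited names, and the effects of lane and genotype cannot be told apart.

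Endothelial cells line blood and lymphatic vessels and are held together by junctional adhesion molecules, some of which are shared with platelets and leukocytes. At the bud and cap stages of tooth development, vessels run through the dental mesenchyme around the tooth germ. Marker genes of endothelium therefore report on vessels caught within a dissected piece of mesenchyme. In bulk tissue, fewer endothelial cells and less of a transcript per cell cannot be told apart.

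Levels were given as RPKM, reads per kilobase of transcript per 1 M mapped reads. The mutant library was the deeper: its mapped reads, estimated from the deposited coverage, numbered about 34.3 M, and those of the control about 5.38 M. Osr2 itself was at 9.16 RPKM in the mutant and 38.7 RPKM in the control, 4.23-fold lower in the mutant (95% counting interval 3.69 to 4.84). Counting intervals cover counting error only, because the reads were amplified and carry no molecular identifiers. The mesenchymal label was matched by its markers: Prrx1 was at 122 RPKM in the mutant and 151 RPKM in the control, and Msx1 at 36.8 RPKM in the mutant and 40.0 RPKM in the control. Dental epithelium was also present, with the basal keratin gene Krt5 at 16.3 RPKM in the mutant and 13.9 RPKM in the control.

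Of the 8 markers, 4 are deposited on several transcript rows that differ by a short coding stretch. These stretches are shown because the values of Emcn, Eng and Egfl7 turn on which row the reads were assigned to. They were read from GENCODE M21 transcripts on GRCm38, 5′ to 3′ on the gene's strand, with the stretch itself in capitals and 15 bases of flanking coding sequence on each side in lower case.
Emcn, 39 bases, chr3:137403984-137404022, plus strand: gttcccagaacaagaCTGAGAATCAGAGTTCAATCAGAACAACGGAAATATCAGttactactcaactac
Eng, 3 bases, chr2:32657516-32657518, plus strand: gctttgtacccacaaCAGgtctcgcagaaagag
Egfl7, 39 bases, chr2:26592242-26592280, plus strand: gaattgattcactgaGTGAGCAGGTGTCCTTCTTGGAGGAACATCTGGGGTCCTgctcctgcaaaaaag
Pecam1, 57 bases, chr11:106671742-106671798, minus strand: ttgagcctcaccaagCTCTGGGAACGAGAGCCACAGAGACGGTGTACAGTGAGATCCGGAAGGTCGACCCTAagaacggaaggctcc

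The 8 markers were expressed at low levels in both libraries, between 0.555 and 3.91 RPKM in the mutant and between 0.640 and 5.53 RPKM in the control. Pecam1 was the most abundant in the mutant, followed by Ramp2, Emcn, Eng, Plvap, Esam, Tie1 and Egfl7. Emcn was the most abundant in the control, followed by Ramp2, Pecam1, Eng, Plvap, Tie1, Esam and Egfl7. Most neighbours in these orders had overlapping counting intervals. The exceptions were Plvap over Esam in the mutant and Pecam1 over Eng in the control. Egfl7 stayed below 1 RPKM in both libraries, so 7 of the 8 passed the filter of at least 1 RPKM in at least 1 library and 9779 genes passed in all.

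**Figure D1:**
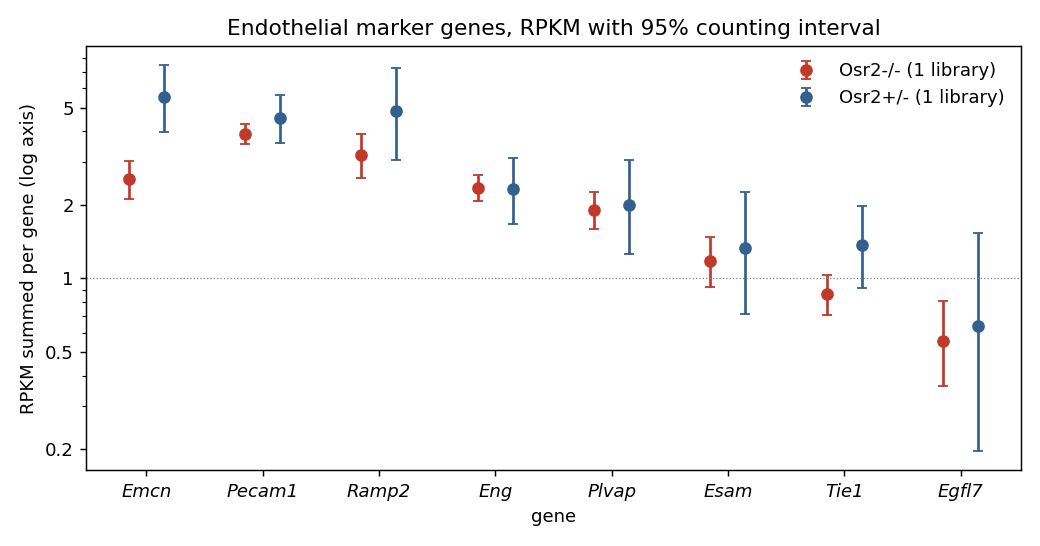
RPKM of each endothelial marker (vertical, log axis, transcript rows summed per gene) in the Osr2-/- library (red, left) and the Osr2+/- library (blue, right), with 95% Poisson counting intervals as bars. The intervals overlap for every gene except Emcn, at 2.54 RPKM in the mutant and 5.53 RPKM in the control.

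Most markers were somewhat lower in the mutant library, and only Emcn had a plain fold of over 2. The log2 ratio of RPKM + 1 in the mutant over RPKM + 1 in the control was below 0 for 6 of the 7 genes tested, against 57.5% of all genes tested. The median of the 7 was -0.17, and the median of all genes tested was -0.05. On a TPM scale every fold of mutant over control is 1.10 times as large. There, 5 of the 7 were below 0 against 40.1% of all genes tested, with Plvap at 0.06. The control's sum on that scale includes Lars2, at 6.73% of it and 0 RPKM in the mutant. A TPM scale without genes that have failed or high-data rows was chosen after seeing the data. With it, 6 of the 7 were below 0, against 51.6% of all genes tested. On the deposited scale, with 1 RPKM added to each value, none of the 7 was at least 2-fold lower (0.798% of all genes tested were) and none was at least 2-fold higher (0.89%). The counting interval of the fold lay below 1 for 2 of the 7, Emcn and Tie1, against 15.9% of all genes tested, and above 1 for none, against 7.84%. Tie1 passed the filter only through the control, at 1.37 RPKM against 0.861 RPKM in the mutant, so its place among the lower genes was favoured by the filter. When 1 read was taken as 50 bases, Emcn alone kept an interval below 1, and that of the fold of Tie1 ran from 0.403 to 1.01.

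Emcn encodes endomucin, a sialomucin on the surface of capillary and venous endothelium. It lies on chromosome 3 from 137004042 to 137094033 in the mouse build mm9 and had 2 transcript rows over that span. Summed over its rows, Emcn was at 2.54 RPKM in the mutant (2.12 to 3.03, about 127 reads) and 5.53 RPKM in the control (3.99 to 7.47, about 42 reads). Emcn was thus 2.17-fold lower in the mutant (1.47 to 3.04). Its log2 ratio of -0.88 was the lowest of the 7.

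The rows of Emcn, given separately, were split differently in the libraries. The row with the 39-base coding stretch, NM_001163522 of 1461 bases, was at 1.79 RPKM in the mutant (1.44 to 2.21) and 0.000121 RPKM in the control. The row without it, NM_016885 of 1422 bases, was at 0.750 RPKM in the mutant (0.527 to 1.04) and 5.53 RPKM in the control (3.99 to 7.47). The longer row thus held 70.5% of the Emcn level in the mutant and 0.00218% in the control. By its own values the shorter row was 7.38-fold lower in the mutant, and the longer row was assigned almost nothing in the control. At the summed coverage of Emcn, the bases of a 39-base stretch amount to about 3.40 reads in the mutant and 1.16 reads in the control. Reads that overlap only part of the stretch also tell the rows apart, so more reads than this bear on the split. Their number was not counted, and how the level divides between the rows is not settled here. The intervals of single rows take assigned reads as counted and leave out the error of that assignment.

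Eng, or endoglin, is a co-receptor for ligands of the TGF-beta and BMP family on endothelium and on some mesenchymal cells. It lies on chromosome 2 from 32502115 to 32538189 (mm9). Its level was 2.35 RPKM in the mutant (2.08 to 2.64) and 2.32 RPKM in the control (1.67 to 3.12), a fold of 1.01 (0.733 to 1.44). It was the only marker with a log2 ratio above 0, at 0.01. Its rows were split differently, as for Emcn. NM_007932, with the 3-base stretch, was at 2.12 RPKM in the mutant and 0.00880 RPKM in the control. NM_001146348, without those bases, was at 0.228 RPKM in the mutant and 2.31 RPKM in the control. These rows are 3433 and 3430 bases long. At the coverage of Eng, the 3 bases alone amount to 0.242 reads in the mutant and 0.0374 reads in the control. More reads than this cross the stretch, since a read reaches beyond it. Their number was not counted, so the split is not settled here. The remaining row, NM_001146350 of 3572 bases, was nearly 0 in both. The end of Eng overlaps the first 61 bases of the span of Fpgs, a gene of folate metabolism at 1.05 RPKM in the mutant and 1.34 RPKM in the control. The sources used here do not say whether strand was kept.

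Egfl7 encodes a secreted protein with EGF-like domains made by endothelial cells, and an intron of the gene holds the precursor of miR-126, a microRNA of endothelium. Egfl7 lies on chromosome 2 from 26436576 to 26448202 (mm9), with 4 rows from 3 start sites. Its summed level was 0.555 RPKM in the mutant (0.364 to 0.811) and 0.640 RPKM in the control (0.197 to 1.54). The control value rests on about 5 reads, and the fold of 0.867 had an interval of 0.328 to 3.13. Nearly all of the level was assigned to the 2 rows that start at 26439384 in both libraries. NM_198724, with the 39-base stretch, was at 0.528 RPKM in the mutant and 5.17e-05 RPKM in the control, while NM_198725, without it, was at 0.0265 RPKM in the mutant and 0.640 RPKM in the control. The bases of the stretch amount to 0.742 reads in the mutant and 0.134 reads in the control. Reads that overlap only part of it were not counted, so the split is not settled here.

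The hairpin row of miR-126, 73 bases on chromosome 2 from 26446877 to 26446949 (mm9), was listed at 0 in both libraries. Its mature sequence from RefSeq (GRCm38.p6) is shown with the seed, bases 2 to 8, in capitals, because its host gene carries the lowest values of the 8 markers.
mmu-miR-126a-3p, chr2:26591402-26591423, plus strand: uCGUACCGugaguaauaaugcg
A hairpin row of this length had an upper counting limit of 1.47 RPKM in the mutant and 9.40 RPKM in the control, so that a level such as that of Egfl7 was not detectable at this depth.

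Pecam1, or CD31, is an adhesion molecule of the immunoglobulin superfamily at endothelial junctions and is also carried by platelets and leukocytes. On chromosome 11 from 106515532 to 106576595 (mm9), it was at 3.91 RPKM in the mutant (3.55 to 4.29) and 4.53 RPKM in the control (3.59 to 5.65), 1.16-fold lower in the mutant (0.903 to 1.48). Here the assigned shares of the rows were similar in the libraries. NM_008816, with the 57-base stretch, was at 1.22 RPKM in the mutant and 1.55 RPKM in the control, and NM_001032378, without it, at 2.68 RPKM in the mutant and 2.99 RPKM in the control. The row with the stretch held 31.3% of the Pecam1 level in the mutant and 34.1% in the control. The bases of this stretch amount to about 7.64 reads in the mutant and 1.39 reads in the control. Reads that overlap only part of it were not counted, so the likeness of the shares is not settled either.

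**Figure D2:**
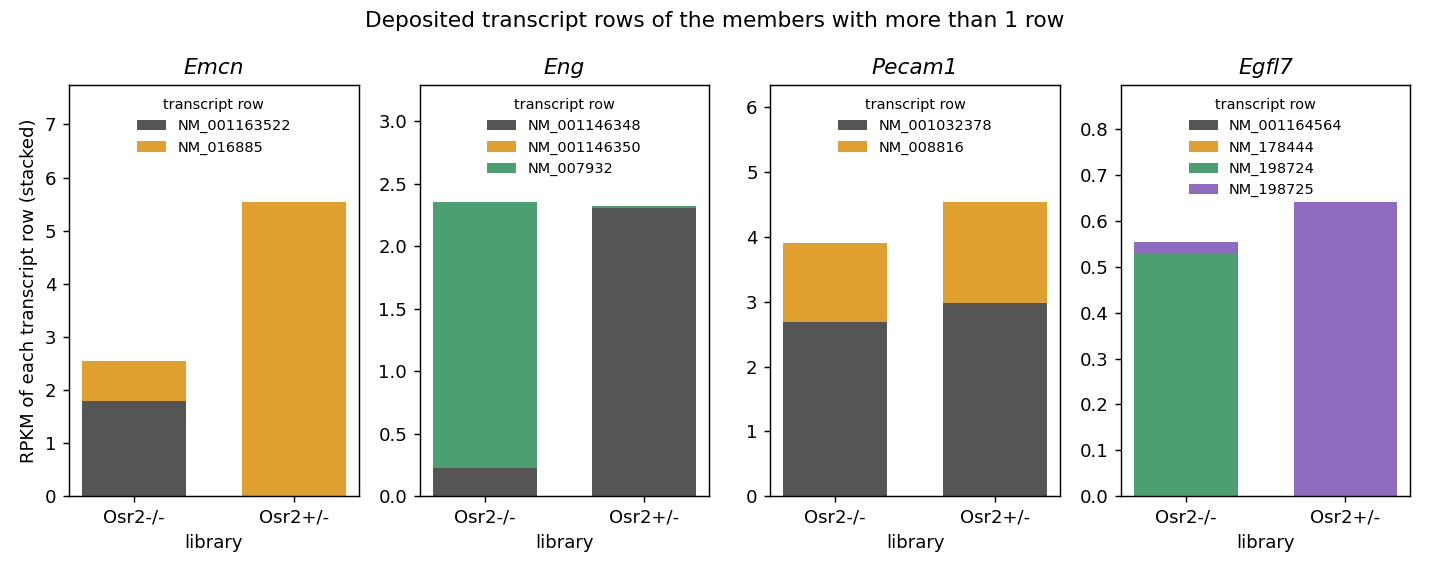
Stacked RPKM of the deposited transcript rows of Emcn, Eng, Pecam1 and Egfl7 (vertical, a separate scale per gene) in the Osr2-/- library (left bar) and the Osr2+/- library (right bar). The rows of Pecam1 have similar assigned shares, with NM_008816 at 31.3% in the mutant and 34.1% in the control, while Emcn, Eng and Egfl7 each have another leading row in the mutant than in the control. The reads that tell the rows of a gene apart were not counted, so none of these splits is settled.

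Of the junction and surface markers with a single row, Esam, an immunoglobulin-like adhesion molecule of endothelial tight junctions and platelets, was at 1.18 RPKM in the mutant (0.926 to 1.48) and 1.33 RPKM in the control (0.716 to 2.27). Its fold was 0.883 (0.489 to 1.72). Plvap, which forms the diaphragms of fenestrae and caveolae in endothelium, was at 1.90 RPKM in the mutant (1.59 to 2.26) and 2.01 RPKM in the control (1.25 to 3.04), a fold of 0.948 (0.599 to 1.57). Both intervals reach well to either side of 1, so a difference of about 1.5-fold in either direction was not detectable at this depth. Esam lies on chromosome 9 from 37335674 to 37345904 and Plvap on chromosome 8 from 74021652 to 74035668 (mm9).

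The receptor genes Tie1 and Ramp2 were lower in the mutant by a larger factor. Tie1, an endothelial receptor tyrosine kinase without a ligand of its own that pairs with the angiopoietin receptor Tek, was at 0.861 RPKM in the mutant (0.711 to 1.03, about 115 reads) and 1.37 RPKM in the control (0.916 to 1.97, about 29 reads). It was 1.59-fold lower in the mutant (1.02 to 2.42). Ramp2, which joins the receptor Calcrl to form the receptor for adrenomedullin, was at 3.19 RPKM in the mutant (2.59 to 3.90) and 4.85 RPKM in the control (3.07 to 7.29). It was 1.52-fold lower (0.917 to 2.42), and the interval includes 1. Tie1 lies on chromosome 4 from 118143796 to 118162454 and Ramp2 on chromosome 11 from 101107648 to 101109564 (mm9).

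Promoter windows of RefSeq (GRCm38.p6), 250 bases before to 50 bases after each start, were found for Egfl7, Emcn, Eng and Tie1, as 6 windows. They were searched on both strands for AGGAAG and CGGAAG, which hold the GGAA core bound by ETS factors, a family that acts in endothelial gene regulation. Either motif was present in 5 of the 6 windows, and in 46.5% of 32851 mouse promoter windows of the same length. AGGAAG was in 35.4% of all windows and CGGAAG in 16.9%, and windows that hold both are in each share. The window of Emcn and the middle of the 3 Egfl7 windows are printed with matches in capitals, since they belong to the marker with the lowest ratio and to the one with several starts. The middle start is also the one whose rows were assigned nearly all of the Egfl7 level in mm9. Reads that tell the starts apart were not counted, so this assignment is not settled.
Emcn, chr3:137340828-137341127, plus strand: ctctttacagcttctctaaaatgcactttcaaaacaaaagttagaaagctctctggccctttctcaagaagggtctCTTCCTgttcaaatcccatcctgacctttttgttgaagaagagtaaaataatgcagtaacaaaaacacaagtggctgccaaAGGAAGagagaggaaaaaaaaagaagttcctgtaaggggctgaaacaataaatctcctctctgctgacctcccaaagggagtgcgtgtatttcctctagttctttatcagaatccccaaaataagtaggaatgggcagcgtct
Egfl7, chr2:26583615-26583914, plus strand: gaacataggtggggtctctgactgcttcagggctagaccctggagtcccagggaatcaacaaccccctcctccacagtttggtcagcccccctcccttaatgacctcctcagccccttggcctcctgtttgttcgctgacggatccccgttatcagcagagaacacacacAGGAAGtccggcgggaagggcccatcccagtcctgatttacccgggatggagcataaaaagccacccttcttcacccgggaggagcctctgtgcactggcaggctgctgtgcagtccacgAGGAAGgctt
Emcn and this Egfl7 window each hold 2 matches to AGGAAG and none to CGGAAG. The matches describe these letters and show no binding.

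Most receptors, ligands and partners of the markers were slightly lower in the mutant library. Of 24 genes on this list, 15 were tested, 11 had a log2 ratio below 0 (57.5% of all genes tested did), and the median was -0.12, against -0.05 over all genes tested. None was 2-fold apart on the scale of RPKM + 1. Of all genes tested, 0.798% were at least 2-fold lower on that scale and 0.89% at least 2-fold higher. Of the 15, 6 had an interval of the fold below 1, against 15.9% of all genes tested, and none above 1, against 7.84%. Among the 6, Acvrl1 passed the filter only through the control. Calcrl, the partner of Ramp2, was at 5.42 RPKM in the mutant and 5.24 RPKM in the control, a fold of 1.03 (0.861 to 1.25). Tek, the partner of Tie1, was at 1.76 RPKM in the mutant and 2.25 RPKM in the control, 1.28-fold lower (0.943 to 1.71). Angpt1, a ligand of Tek made by mesenchymal cells, was at 4.88 RPKM in the mutant and 6.91 RPKM in the control, 1.42-fold lower (1.18 to 1.69). Angptl1, a related secreted protein, was at 3.77 RPKM in the mutant and 5.58 RPKM in the control.

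The receptors that work with endoglin were measured beside it. Acvrl1, or ALK1, an endothelial type I receptor, was at 0.763 RPKM in the mutant and 1.42 RPKM in the control, 1.85-fold lower (1.17 to 2.86). Tgfbr3, or betaglycan, was 1.44-fold lower (1.20 to 1.72) and Tgfbr1 1.21-fold lower (1.08 to 1.35). Tgfbr2 was at 6.71 RPKM in the mutant and 7.08 RPKM in the control, and Bmpr2 at 14.0 RPKM in the mutant and 14.7 RPKM in the control. The ligand gene Tgfb1 was at 3.43 RPKM in the mutant and 3.36 RPKM in the control. Among junction partners, F11r, or JAM-A, which is expressed by epithelium as well, was 2.28-fold lower (1.47 to 3.46), with 1.03 RPKM in the mutant and 2.35 RPKM in the control. Jam3 was at 4.50 RPKM in the mutant and 3.32 RPKM in the control, a fold of 1.36 (0.955 to 1.98). The phosphatase gene Ptpn11, whose product binds the tail of PECAM-1, was at 4.32 RPKM in the mutant and 4.37 RPKM in the control.

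By median log2 ratio, the libraries were slightly closer across a wider list of endothelial genes than for the markers tested. Of 48 symbols, 45 were in the files and 23 were tested. Of these, 19 had a log2 ratio below 0, against 57.5% of all genes tested, and the median was -0.11. Ecscr and Mmrn2 passed the filter only through the control, so their ratios below 0 were built in. On the scale of RPKM + 1 none of the 23 was 2-fold apart. Of all genes tested, 0.798% were at least 2-fold lower and 0.89% at least 2-fold higher. On the TPM scale 13 of the 23 were below 0, against 40.1% of all genes tested, with a median of -0.01. On that scale without genes that have failed or high-data rows, 16 were below 0, against 51.6%, with a median of -0.10. An interval of the fold lay below 1 for 4, a share near the 15.9% of all genes tested, and above 1 for none, against 7.84%. Cdh5, or VE-cadherin, the defining adhesion molecule of endothelial junctions, was at 9.62 RPKM in the mutant and 10.5 RPKM in the control, a fold of 0.915 (0.794 to 1.06), and was thus higher per length than any of the 8 markers. Kdr, the main VEGF receptor, was at 3.19 RPKM in the mutant and 3.55 RPKM in the control, a fold of 0.897 (0.728 to 1.12). Cav1, the caveolin gene, which is expressed outside endothelium too, was at 8.80 RPKM in the mutant and 7.40 RPKM in the control. Among the 23 tested, the largest log2 ratios in either direction were those of Rhoj, a small GTPase of endothelium, at -0.59, Cd34, a sialomucin of endothelium and blood progenitors, at -0.57, Tmem204 at -0.41 and the scavenger receptor gene Stab1 at -0.38. Cd34 was at 7.70 RPKM in the mutant and 11.9 RPKM in the control, 1.55-fold lower (1.26 to 1.80), and for Rhoj the factor was 1.79 (1.23 to 2.54). The selectin genes Sele and Selp were listed at 0 in both libraries.

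**Figure D3:**
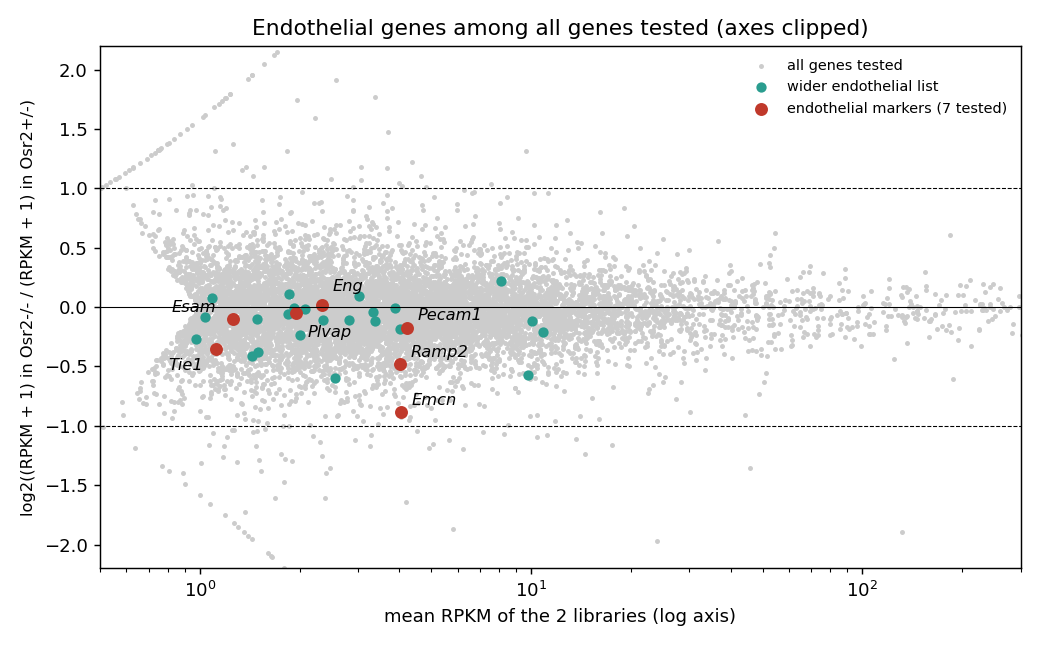
Log2 ratio of RPKM + 1, Osr2-/- over Osr2+/- (vertical), against the mean RPKM of the 2 libraries (horizontal, log axis) for all genes tested (grey), the wider endothelial list (green) and the 7 endothelial markers tested (red). Dashed lines mark 2-fold; all endothelial points lie between them, with Emcn lowest at -0.88.

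Levels were also summed over the genes of a list, some of which are expressed outside endothelium too. The 8 markers summed to 16.5 RPKM in the mutant and 22.6 RPKM in the control, 1.37-fold lower in the mutant. Over their estimated reads, which weigh long transcripts more, the factor was 1.27 (1.11 to 1.45). Without Emcn the sum was 13.9 RPKM in the mutant and 17.1 RPKM in the control, 1.22-fold lower, and over reads 1.18-fold (1.01 to 1.36). The wider endothelial list summed to 84.8 RPKM in the mutant and 95.8 RPKM in the control, 1.13-fold lower, and over reads 1.12-fold (1.07 to 1.18). This interval overlaps those of the markers with and without Emcn. All genes together, with failed and high-data rows left out, were 1.03-fold lower in the mutant by the same sum. On the TPM scale the ratio of the wider list was 0.975. Without genes that have failed or high-data rows, such as Lars2, that ratio was 0.914.

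Endothelial transcription factors and vessel subtype genes held members on both sides. Of 22 factors, 12 were tested with a median log2 ratio of -0.10. Sox7 was 1.77-fold lower (1.23 to 2.50), with 1.39 RPKM in the mutant and 2.46 RPKM in the control, and Nr2f2, or COUP-TFII, a factor of venous endothelium and of mesenchyme, was 1.53-fold lower (1.26 to 1.85). Mef2c was 1.47-fold higher (1.23 to 1.78), and Lmo2 was at 1.07 RPKM in the mutant and 0.550 RPKM in the control (interval of the fold 0.754 to 6.74). Lmo2 passed the filter only through the mutant, so its ratio above 0 was built in. Of 20 arterial, venous and lymphatic genes, 11 were tested with a median of -0.21. An interval lay below 1 for 5 (15.9% of all genes tested) and above 1 for 3 (7.84%). Hey1, a Notch target also made outside vessels, was 2.18-fold higher (1.57 to 3.11), Unc5b, a netrin receptor of arterial endothelium, 1.65-fold higher (1.21 to 2.30), and Pdpn, a lymphatic endothelial and mesenchymal glycoprotein, had a fold of 0.609 (0.386 to 0.997).

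Tie1 also belongs to the VEGF and angiopoietin genes, of which 13 of 14 were tested. These had a median log2 ratio of -0.12, with the co-receptor gene Nrp2 at 14.2 RPKM in the mutant and 5.08 RPKM in the control, Figf (VEGF-D) at 5.72 RPKM in the mutant and 2.25 RPKM in the control, and Nrp1 at 3.15 RPKM in the mutant and 5.55 RPKM in the control. On the scale of RPKM + 1, Nrp2 and Figf, 2 of the 13 tested, were at least 2-fold higher, against 0.89% of all genes tested. None of the 13 was at least 2-fold lower, against 0.798%.

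Genes of cells that wrap vessels lay on both sides. Of 12 pericyte and smooth muscle genes, 6 were tested with a median log2 ratio of 0.03. Rgs5, a pericyte marker, was 1.68-fold lower (1.31 to 2.15), with 5.15 RPKM in the mutant and 8.67 RPKM in the control, and Acta2, smooth muscle actin, 1.73-fold lower (1.08 to 2.68). Pdgfrb, carried by pericytes and mesenchyme, was 1.21-fold higher (1.06 to 1.38), and Notch3 was at 3.28 RPKM in the mutant and 2.71 RPKM in the control. All 11 genes of vessel basement membrane found were tested, with a median of -0.09; Nid2 was 1.46-fold lower (1.27 to 1.67), Col4a2 1.21-fold lower (1.09 to 1.36) and Col15a1 1.25-fold lower (1.01 to 1.53), while Lamb1 was 1.35-fold higher (1.17 to 1.57).

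Erythroid and macrophage genes summed to lower levels in the mutant library as well. Erythroid genes summed to 927 RPKM in the mutant and 1163 RPKM in the control, 1.25-fold lower, with 6 of 8 tested genes having an interval below 1, against 15.9% of all genes tested. Hba-a1 was 1.36-fold lower (1.22 to 1.51), Hbb-y 1.30-fold (1.24 to 1.37), Slc4a1 1.44-fold (1.08 to 1.90) and Hbb-b1 1.20-fold (1.05 to 1.36). Macrophage genes summed to 32.5 RPKM in the mutant and 40.6 RPKM in the control, with 2 of 10 tested having an interval below 1, a share near the 15.9% of all genes tested. These were C1qb (1.61-fold lower, 1.05 to 2.40) and Mrc1 (1.29-fold lower, 1.02 to 1.62). The intervals of Lyz2 and C1qc, at 1.34-fold and 1.27-fold lower, included 1. Of 9 platelet and megakaryocyte genes, which bear on Pecam1 and Esam, only Pf4 was tested, at 1.75 RPKM in the mutant and 4.06 RPKM in the control. The platelet list summed to 3.86 RPKM in the mutant and 5.09 RPKM in the control, but over estimated reads it was 1.05-fold higher (0.731 to 1.55). Itgb3 of that list was at 0.660 RPKM in the mutant and 0.525 RPKM in the control. Gp5 was listed at 0 in the mutant, and Gp9 in the control. The part of blood cells in the levels of the 8 markers was not tested.

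The tissue around the vessels differed between the libraries as well. The dental mesenchyme list summed to 348 RPKM in the mutant and 422 RPKM in the control, with a median log2 ratio of -0.25 over 12 genes tested, and Pax9, Lhx8, Barx1 and Runx2 at -0.63, -0.59, -0.53 and 0.83. Dental epithelium genes summed to 67.3 RPKM in the mutant and 49.5 RPKM in the control, with a median of 0.34 over 12 genes tested. An interval lay above 1 for 6 of them, against 7.84% of all genes tested, and Krt17, Krt18, Perp and Krt14 stood at 1.18, 0.80, 0.75 and 0.45. Krt18 passed the filter only through the mutant. Shh and Cldn7 of that list were listed at 0 in the control. The median of the 7 endothelial markers, -0.17, thus lay between those of the dental mesenchyme list, whose genes ran from -0.63 to 0.83, and of all genes tested. The part of tissue composition in the endothelial values was not tested.

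**Figure D4:**
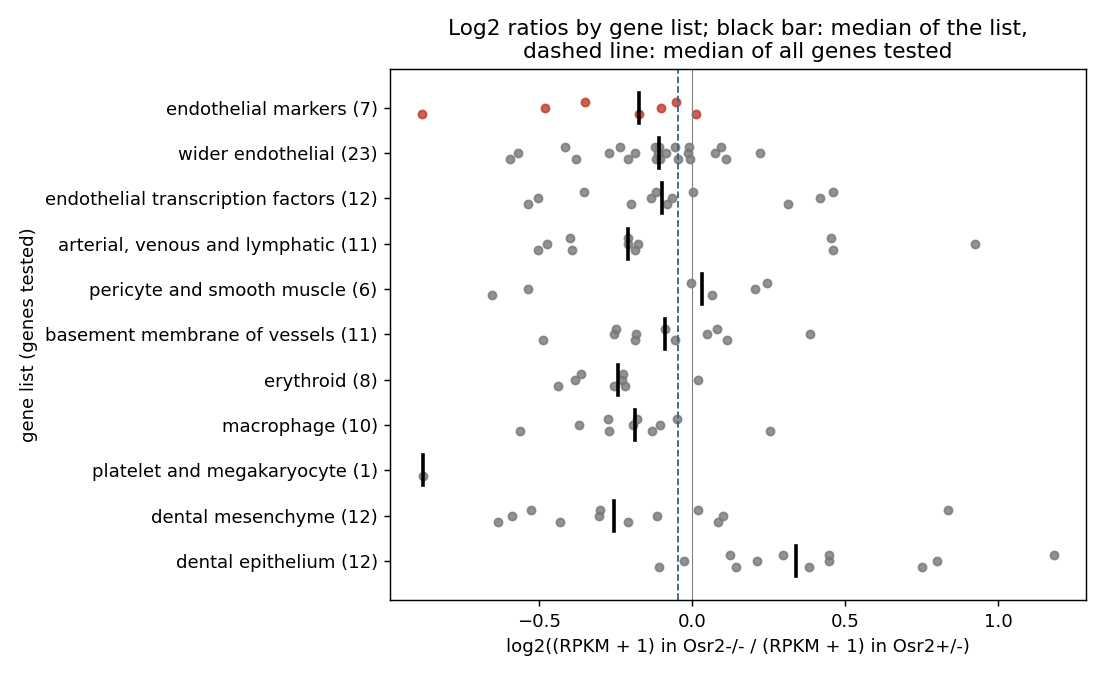
Log2 ratio of RPKM + 1, Osr2-/- over Osr2+/- (horizontal), of each gene tested in 11 lists (vertical, number tested in brackets), with the list's median as a black bar and the median of all genes tested, -0.05, as a dashed line. The endothelial markers (red) have a median of -0.17, the wider endothelial list -0.11, erythroid genes -0.24 and dental epithelium genes 0.34.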

How the data were processed

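Per the labels' protocols, molar mesenchyme was laser-captured from frozen sections, total RNA was extracted and cDNA was made with the NuGEN Ovation RNA-Seq v2 assay. Alignment tools named per the submitters' processing notes were Bowtie 0.12.7 and TopHat 1.4.1, with the build mm9. The authors deposited RPKM and coverage (mean reads per base, unscaled for library size) for each RefSeq transcript, per the file headers. The members and lists were chosen with earlier results of these data known. The genes named were the 8 markers, Osr2, miR-126, genes overlapping a marker and all tested partners of the markers. Up to 4 genes per other list with the largest absolute log2 ratio were named too. Kdr, Sele, Selp, Gp5, Gp9, Shh, Cldn7, Prrx1, Msx1, Krt5, Itgb3, Lars2, Ecscr and Mmrn2 were added after their values were seen.

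Rows whose status was failed or high-data (54 in all) were left out and the rest summed per symbol. The log2 ratio used a pseudocount of 1 RPKM, which understates differences of low genes, for genes at 1 RPKM or more in at least 1 library. A gene that passed through 1 library only is by that rule the lower in the other. Folds are plain RPKM ratios. Reads were estimated as coverage times length divided by 44.3 bases, the mean of the libraries' medians of that product between 20 and 66 bases; the step depends on that range, so read numbers are approximate. Intervals are 95% Poisson (levels) and Clopper-Pearson (folds) intervals of these reads. For genes with several rows and for lists, the interval is that of the reads. Coverage per RPKM gave a depth ratio of 6.38. No test was made, with 1 library per genotype. The computation was tested on simulated data and used Python 3.11.15, numpy 2.4.6, pandas 2.3.3 and scipy 1.17.1.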

Additional observations from a re-analysis of the deposited data

How the results depend on the processing

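No paired analysis was possible because each genotype has 1 library. The median log2 ratio of the markers, -0.17 as reported, was -0.073 on the TPM scale, -0.128 when centred on the median of all genes and -0.137 with no filter on low values. It reached -0.35 with only the highest row of each gene kept, chosen by the level summed over the libraries. With a filter of 5 RPKM it was -0.88, the value of 1 marker, Emcn. Emcn passed that filter only through the control, at 5.53 RPKM against 2.54 RPKM in the mutant, so a low ratio was built in. At that filter 3 of 4 wider endothelial genes were below 0, against 58.7% of all genes tested. On the TPM scale the median of all genes moved by 0.13, and the median of the markers minus that of all genes was -0.15, against -0.128 as reported; Lars2, at 8006 RPKM in the control and with a high-data status and 0 RPKM in the mutant, made up 6.73% of the control's sum. The count of markers at least 2-fold lower, 0 as reported, was 1 with a pseudocount of 0.1, 1 on a TPM scale without genes that have failed or high-data rows (chosen after seeing the data) and 2 with the highest row per gene, where Emcn stood at -1.90 and Eng at -1.43. The row kept for Emcn and for Eng was the leading row of the control, not that of the mutant, so these values turn on the assignment of reads to rows. The share of all genes at least 2-fold lower is not given here for these settings. With the highest row per gene the summed level of the markers gave a ratio of 0.515, against 0.730, and this ratio carries the same choice of rows. On the TPM scale the wider endothelial list gave 0.975, against 0.885. Without genes that have failed or high-data rows it gave 0.914 on that scale. Markers with an interval below 1 numbered 1, against 2, when 1 read was taken as 50 bases, an alternative also chosen after seeing the data. The other 39 recomputed summary values stayed within the counting interval of the summed fold or within 1.5 times the reported count, and the other 48 single-gene values within their counting interval; Plvap crossed 0 on the TPM scale, at 0.06. Leaving out each marker in turn gave ratios of the summed level from 0.697 to 0.818. Depth limits the control most: Egfl7 rests on about 5 reads and Esam on about 13.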
